A study of Homo sapiens with 3 samples.

Results

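The 10 genes described here, *ETS1*, *ETS2*, *ERG*, *FLI1*, *ETV1*, *ETV4*, *ETV5*, *ETV6*, *ELF1* and *ELK3*, encode transcription factors of the ETS family, which has 28 genes in human. To examine where RUNX2 and its partner CBFB were found at these genes, every peak within 25 kb of a gene body was taken from both peak lists of the study, and a gene body was the whole gene record of the annotation. This gave 7 of the 9941 RUNX2 peaks and 18 of the 27246 CBFB peaks. The peaks came from ChIP-seq, in which DNA pulled down with an antibody is sequenced, of untreated SAOS2 cells, an established human osteosarcoma line without p53, used at a low passage. There were 3 libraries, 1 with an in-house RUNX2 antibody, 1 with a commercial CBFB antibody and 1 of input DNA, and the input was not analysed here. With 1 library per antibody there were no replicates, so all values below are descriptions of these libraries and no test was run. Peak lists hold no expression values, so neither the state of the genes nor the cell type could be checked.

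ETS proteins share a winged helix-turn-helix domain, the ETS domain, that binds DNA around the bases GGA. They act at the promoters and enhancers of genes for growth, blood, vessel and skeletal development, some as activators and some as repressors, and many respond to MAP kinase signalling. Several are known from tumours as fusion genes: *FLI1* and *ERG* join *EWSR1* in Ewing sarcoma, another bone tumour, *ERG*, *ETV1*, *ETV4* and *ETV5* join *TMPRSS2* in prostate cancer, and *ETV6* joins *RUNX1* in childhood leukaemia. RUNX2 is the master transcription factor of the bone-forming lineage. CBFB is a shared subunit of all RUNX proteins, so that a CBFB peak without a RUNX2 peak does not show which RUNX protein, if any, was beneath it. ETS1 and RUNX proteins are known to bind DNA side by side at some enhancers.

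The sequences under the peaks are shown first for the RUNX2 peaks on which the results turn. Each run is 201 bp around the midpoint of a RUNX2 peak, read from the plus strand of GRCh37 (hg19). Capitals mark the RUNX core, TGTGGT or ACCACA on the other strand. The peak downstream of *ETS2* and the stronger peak in *ETV6* held a core within 100 bp of the midpoint. The peaks in *FLI1* and at the start of *ELK3* are shown because they held none. The peaks at *ELF1* and the weaker peak in *ETV6* also held none within 100 bp and are not printed.
ETS2, chr21:40212127-40212327: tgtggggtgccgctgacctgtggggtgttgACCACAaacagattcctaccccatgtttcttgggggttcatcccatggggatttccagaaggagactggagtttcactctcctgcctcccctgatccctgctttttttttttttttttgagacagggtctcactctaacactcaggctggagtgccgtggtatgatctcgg
ETV6, chr12:11952015-11952215: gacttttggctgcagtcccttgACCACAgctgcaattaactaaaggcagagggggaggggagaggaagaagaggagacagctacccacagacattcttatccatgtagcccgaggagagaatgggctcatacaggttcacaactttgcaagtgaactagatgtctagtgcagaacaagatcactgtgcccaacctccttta
FLI1, chr11:128586750-128586950: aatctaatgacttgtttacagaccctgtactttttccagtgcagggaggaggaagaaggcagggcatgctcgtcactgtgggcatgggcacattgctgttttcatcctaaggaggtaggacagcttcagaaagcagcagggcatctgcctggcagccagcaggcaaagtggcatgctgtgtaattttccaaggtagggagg
ELK3, chr12:96587939-96588139: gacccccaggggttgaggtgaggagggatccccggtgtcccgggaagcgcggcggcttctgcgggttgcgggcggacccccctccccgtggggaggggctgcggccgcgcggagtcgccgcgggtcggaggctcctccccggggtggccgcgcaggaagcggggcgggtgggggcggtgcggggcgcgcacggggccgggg

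The *ELK3* window stands apart by its composition, with 81.6% G and C against a median of 49.8% over the RUNX2 list. In the *FLI1* peak a copy of the ETS core, CCGGAAG or CTTCCGG on the other strand, lay 141 bp from the midpoint, outside the window above. It is shown in capitals within 41 bp of plus strand sequence.
FLI1 ETS core, chr11:128586971-128587011: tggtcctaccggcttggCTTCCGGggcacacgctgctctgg

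Other sequences came from CBFB peaks that no RUNX2 peak overlapped. They are shown because the RUNX core, in capitals, lay close to their midpoints although the RUNX2 list had no peak there. Such peaks with a core 86 bp (*ELF1*) and 88 bp (*ELK3*) from the midpoint are not printed. Each printed run is 61 bp of the plus strand centred on the core.
ETV1, chr7:14031232-14031292: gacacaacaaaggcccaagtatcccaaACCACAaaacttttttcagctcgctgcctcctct
ETV6, chr12:11786992-11787052: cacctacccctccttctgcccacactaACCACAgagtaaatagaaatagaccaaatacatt
ELK3, chr12:96631666-96631726: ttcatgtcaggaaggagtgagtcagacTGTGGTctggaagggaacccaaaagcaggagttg
The *ELK3* run also holds tgagtca, a match to the AP-1 motif TGANTCA, to the left of the core.

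In total, 5 of the 10 genes had a RUNX2 peak within 25 kb, namely *ETS2*, *FLI1*, *ETV6*, *ELF1* and *ELK3*. The same count over all 20163 protein-coding genes gave 7267 genes, or 36.0%. Each of the 5 also had a CBFB peak, and 35.1% of protein-coding genes had both. A CBFB peak was found at 7 of the 10, the same genes and *ERG* and *ETV1*, against 62.2% of protein-coding genes. A CBFB peak without a RUNX2 peak, as at *ERG* and *ETV1*, was found at 27.1% of protein-coding genes. *ETS1*, *ETV4* and *ETV5* had no peak of either list, a state shared by 36.9% of protein-coding genes. None of the 10 had a RUNX2 peak without a CBFB peak. Each of these counts was within 2 genes of what the shares over all coding genes would give for 10 genes.

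The peaks were unevenly spread among the genes. *ETV6* and *ELF1* each had 2 RUNX2 and 5 CBFB peaks, *ELK3* had 1 and 4, *ETS2* and *FLI1* had 1 of each, and *ERG* and *ETV1* had 1 CBFB peak. *ETV6*, *ELF1* and *ELK3* together accounted for 5 of the 7 RUNX2 peaks and for 14 of the 18 CBFB peaks. Among all coding genes, 13.8% had at least 2 RUNX2 peaks and 8.58% at least 5 CBFB peaks. Among coding genes in the length band of *ETV6*, 200 kb or more, these shares were 33.1% and 34.7%, and in that of *ELF1*, 100 to 200 kb, they were 22.7% and 19.4%. At least 4 CBFB peaks, as at *ELK3*, were found at 13.9% of all coding genes and 15.4% of those between 50 and 100 kb.

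**Figure D1:**
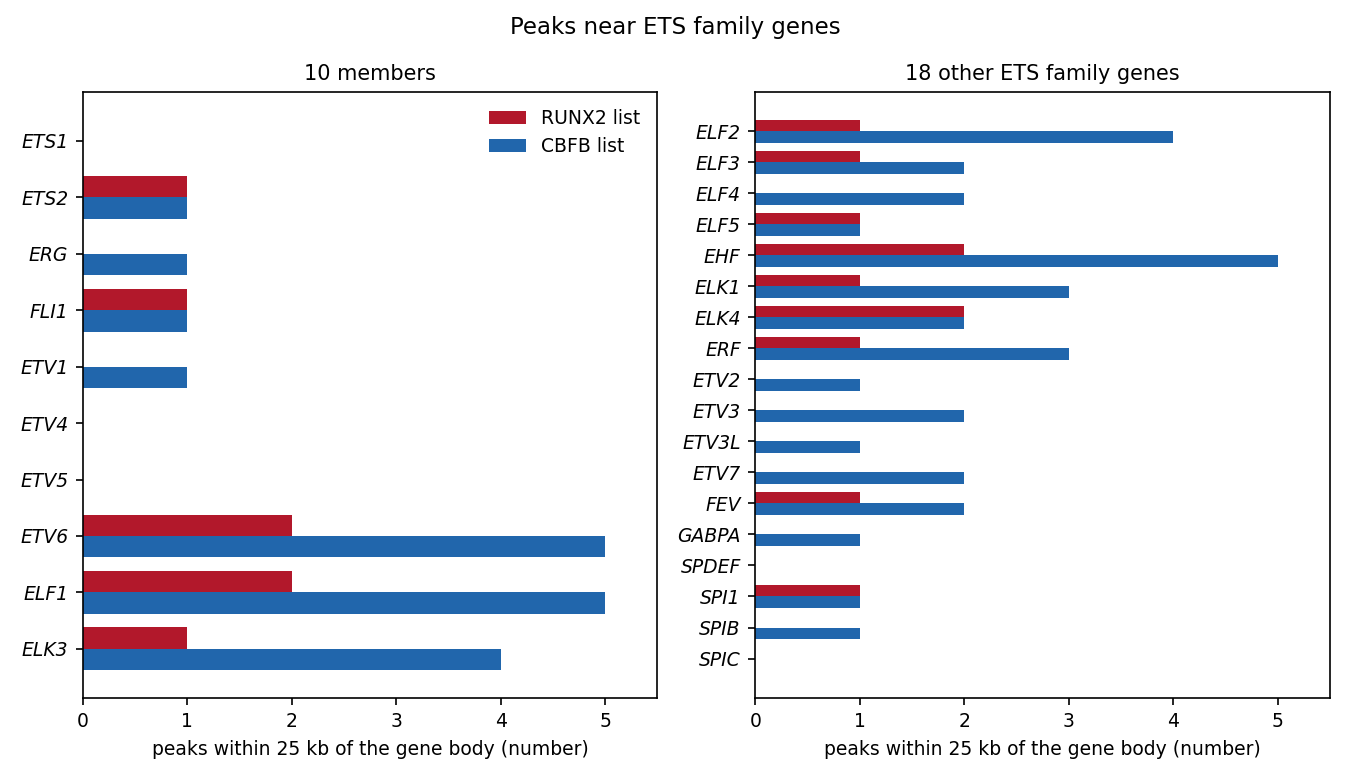
Number of peaks within 25 kb of the gene body (horizontal axis) for the 10 genes described here, called members (left), and for the 18 other ETS family genes (right), with the RUNX2 list in red and the CBFB list in blue. ETV6 and ELF1 have 2 RUNX2 and 5 CBFB peaks each, and ETS1, ETV4 and ETV5 have no bar.

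Long genes have more room for peaks, and these genes are long, with a median body of 113 kb against 27.2 kb for all protein-coding genes. The share of coding genes with a RUNX2 peak rose from 29.5% for bodies under 20 kb to 53.1% for bodies of 200 kb or more, and the share with a CBFB peak from 53.4% to 75.6%. Per 100 kb of gene body and flank, the 10 genes had 0.406 RUNX2 peaks (exact Poisson 95% interval 0.163 to 0.837) and all coding genes 0.434. For CBFB the densities were 1.04 (0.619 to 1.65) and 1.21. These intervals, and the exact binomial ones below, cover counting error only. Both intervals held the density over all coding genes.

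Within the length bands the genes with and without peaks stood side by side. Of the 2 longest, *ERG* and *ETV6*, only *ETV6* had a RUNX2 peak. Of the 4 between 100 and 200 kb, *ELF1* and *FLI1* had RUNX2 peaks, *ETV1* had a CBFB peak alone, and *ETS1* had no peak. Of the 3 between 50 and 100 kb, *ELK3* had peaks of both lists while *ETV4* and *ETV5* had none. *ETS2*, at 19.8 kb the shortest, had both.

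**Figure D2:**
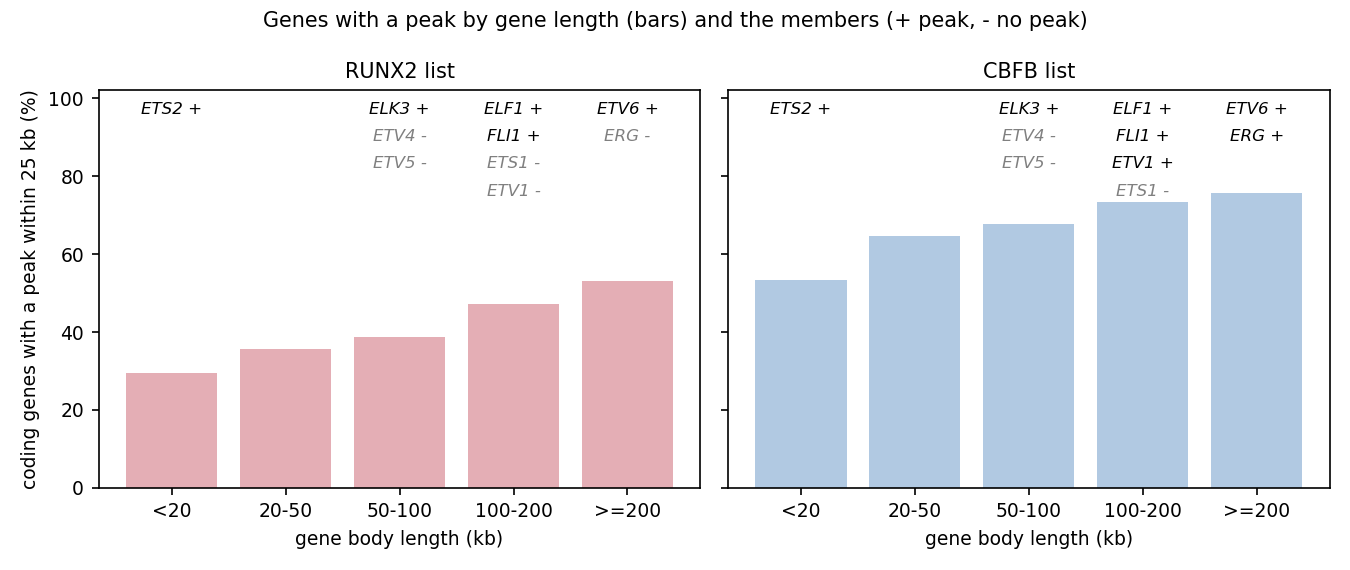
Percent of protein-coding genes with a RUNX2 peak (left) or a CBFB peak (right) within 25 kb, by length of the gene body in kb, as bars from 0. The names of the 10 genes are written in the band they belong to, in black with + where they had a peak and in grey with - where they had none. Longer genes had peaks more often, from 29.5% to 53.1% for RUNX2, and genes of like length differed, as ERG and ETV6 did for RUNX2.

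The score in both lists was read as that of the peak caller MACS, a p-value on a log10 scale on which stronger peaks score higher. It depends on the depth of the library, so each score is given with its percentile, the share of its own list that it exceeded or equalled, and levels were not compared between lists. Over the lists the scores ran from 50 to 3100, with a median of 84.1 for RUNX2 and 121 for CBFB. The 7 RUNX2 peaks at these genes lay between percentiles 7.13 and 91.1, with a median of 38.5, and 3 of them lay below the 15th. The 18 CBFB peaks lay between percentiles 5.30 and 85.7, with a median of 48.5, and 0 reached the top 10%. Both medians lay below the middle of the list, with peaks on either side of it.

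**Figure D3:**
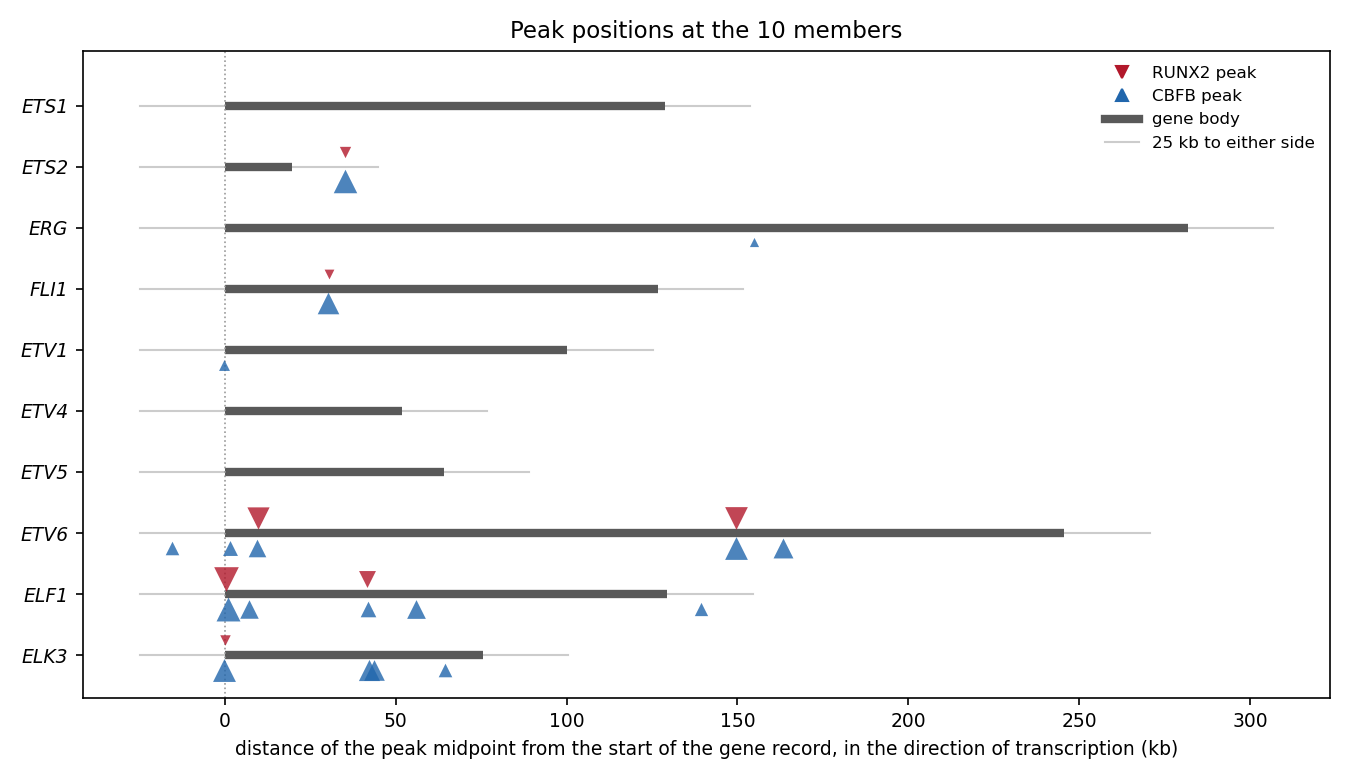
Position of each peak along the 10 genes, as the distance in kb of its midpoint from the start of the gene record in the direction of transcription. Dark bars are gene bodies and thin lines the 25 kb to either side. Red triangles are RUNX2 peaks and blue triangles CBFB peaks, and larger triangles have a higher score percentile. Peaks gather at ETV6, ELF1 and ELK3, and the lines of ETS1, ETV4 and ETV5 are empty.

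*ELF1* (chr13:41506060-41635576, minus strand), which encodes an activator expressed in blood and many other cells, had the strongest RUNX2 peak. This peak (41634056 to 41636713, score 215.99, percentile 91.1) was 2658 bp wide, wider than or level with 99.1% of the list. It covered both the farthest upstream start of *ELF1* and the start of *WBP4*, a splicing factor gene that runs the other way, so the gene to which it belongs cannot be told. Its midpoint lay in an untranslated exon of *ELF1*, 192 bp from the start of the record, and it held no RUNX core. The CBFB peak there (41632279 to 41637157, score 360.11, percentile 85.7) was the highest-ranking CBFB peak of the 10 genes, 4879 bp wide, and contained the RUNX2 peak entirely.

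Another wide RUNX2 peak (41592889 to 41594986, score 72.40, percentile 38.5) covered the start of the canonical *ELF1* transcript, 42.1 kb from the upstream start. Its CBFB partner scored 83.97, at percentile 31.5, and covered 90.7% of it. Both carried 2 RUNX cores, but the one nearest to the RUNX2 midpoint was 698 bp away. *ELF1* was the one gene of the 10 with RUNX2 peaks at 2 of its starts. The other CBFB peaks at *ELF1* had no RUNX2 peak: they lay in introns (41627240 to 41630044, percentile 47.8, and 41578715 to 41580682, percentile 49.2) and 8836 bp downstream (41495347 to 41497224, percentile 20.3). The downstream peak covered the start of the transcribed pseudogene *SUGT1P3*.

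*ETV6* (chr12:11802608-12048311, plus strand), which encodes a repressor needed for blood stem cells, had RUNX2 peaks in introns only. The higher one (11951546 to 11952685, score 132.84, percentile 76.5) lay 149507 bp from the start and shared a midpoint, to within 12 bp, with a CBFB peak of score 247.31 and percentile 76.8. Its RUNX core lay 76 bp from the midpoint, as printed above. The lower one (11811673 to 11812671, score 122.84, percentile 72.9) lay 9564 bp from the start, inside a CBFB peak of percentile 42.5. It held 3 cores, the nearest 180 bp from the midpoint. Both RUNX2 peaks of *ETV6* thus lay away from its start, whereas those of *ELF1* and *ELK3* covered a start. In rank they stood below the strongest peak of *ELF1*, at percentile 91.1.

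CBFB peaks without RUNX2 flanked these sites at *ETV6*. One lay in an intron, 720 bp from a start (11803665 to 11804509, score 78.81, percentile 28.0). Another lay 15.2 kb upstream (11786679 to 11787393, percentile 21.7) with a core 15 bp from its midpoint, and the last was intronic (11965482 to 11966482, percentile 56.6).

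*ELK3* (chr12:96588153-96663602, plus strand) encodes a ternary complex factor, which works with SRF at serum response genes and represses them until it is phosphorylated. Its RUNX2 peak (96587780 to 96588298, score 54.24, percentile 9.48) was only 519 bp wide and covered the start of the gene, with the midpoint 114 bp upstream. The peak held no RUNX core. A CBFB peak (96587425 to 96588573, score 255.69, percentile 77.7) contained it, with midpoints 40 bp apart, and held 1 core 487 bp from its own midpoint. The start of *ELK3* therefore ranked low in the RUNX2 list and high in the CBFB list.

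The 3 intronic CBFB peaks of *ELK3* had no RUNX2 peak. A pair stood close together, with midpoints 42203 and 43581 bp into the gene, at 96629974 to 96630738 (score 174.00, percentile 65.1) and 96631200 to 96632269 (score 158.71, percentile 61.5). Their midpoints lay 928 and 2306 bp from the start of an unnamed long noncoding RNA gene on the other strand. The first of the pair was the highest-ranking CBFB peak without RUNX2 at the 10 genes. The other held the RUNX core and the AP-1 match printed above, 39 and 48 bp from its midpoint. The last (96651989 to 96652859, percentile 21.9) held a RUNX core 88 bp and an ETS core 246 bp from its midpoint.

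*FLI1* (chr11:128556430-128683162, plus strand), a regulator of megakaryocytes and vessels, had 1 RUNX2 peak (128586586 to 128587115, score 53.02, percentile 7.13), the lowest-ranking of the 7. It was 530 bp wide, lay in an intron 22883 bp from the canonical start and held no RUNX core. The CBFB peak around it (128586207 to 128587208) had a score of 189.42 at percentile 68.2. The ETS core printed above lay inside both peaks.

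*ETS2* (chr21:40177107-40196879, plus strand), whose product responds to RAS signalling and has roles in the skeleton, had no peak in its body or at its start. Its RUNX2 peak (40211766 to 40212689, score 55.48, percentile 12.5) lay 14.9 kb downstream, inside an unnamed long noncoding RNA gene on the other strand. The overlapping CBFB peak (40211522 to 40212684) scored 307.24, at percentile 82.3. The RUNX core of the printed window lay 68 bp from the RUNX2 midpoint.

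*ERG* and *ETV1* each had a single CBFB peak of low rank and no RUNX2 peak. At *ERG* (chr21:39751949-40033704, minus strand), a regulator of endothelial and blood stem cells and the longest of the 10 genes, it lay in an intron 8401 bp upstream of the canonical start (39878345 to 39879260, score 54.29, percentile 5.30) and held none of the RUNX, ETS and AP-1 motifs. At *ETV1* (chr7:13930854-14031050, minus strand), it covered the farthest upstream start (14030876 to 14031584, score 59.08, percentile 10.96), with the printed RUNX core 31 bp from its midpoint.

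Among the genes without a peak, distances to the nearest peak differed widely. *ETS1* (chr11:128328656-128457453, minus strand), which gave the family its name, had its nearest CBFB peak 35.5 kb away and its nearest RUNX2 peak 129 kb away, the one in *FLI1*. A stretch of 293 kb around it held no peak of either list, and 2.01 Mb held no RUNX2 peak. Of the 15699 coding genes whose body lay between RUNX2 peaks, 19.9% were in a stretch as long as this or longer. The 98.976 kb between *ETS1* and its neighbour *FLI1* held 0 peaks.

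*ETV4* and *ETV5* are close relatives of *ETV1*, and their products relay fibroblast growth factor signals. *ETV5* (chr3:185764103-185828107, minus strand) was the most isolated, with the nearest CBFB peak 99.6 kb away (percentile 7.85) and the nearest RUNX2 peak 459 kb away in *SENP2*. Only 13.7% of coding genes were as far from a RUNX2 peak. *ETV4* (chr17:41605212-41656988, minus strand) was nearer, with a RUNX2 peak of percentile 84.3 at 43.7 kb that overlapped a CBFB peak. For comparison, 56.3% of coding genes were as far from a RUNX2 peak as *ETV4* or farther.

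*ERG* and *ETS2* are neighbours on chromosome 21. The 143.402 kb between them held 1 RUNX2 peak (40141049 to 40142113, score 146.19, percentile 80.6), which overlapped a CBFB peak of score 199.31, and 1 further CBFB peak of score 50.64. The shared peak lay 34.994 kb upstream of *ETS2* and ranked above the RUNX2 peak that was within 25 kb. The limit of 25 kb had few peaks near it: the farthest inside were at 14.9 kb for RUNX2 (*ETS2*) and 15.2 kb for CBFB (*ETV6*), and the nearest outside at 31.9 kb for RUNX2 (*ETV6*, percentile 17.98) and 27.8 kb for CBFB (*ELK3*, percentile 40.3).

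Each of the 7 RUNX2 peaks shared at least 1 bp with a CBFB peak (100%, exact Clopper-Pearson 95% interval 59.0 to 100), as did 94.2% of the whole RUNX2 list. At least 90.7% of each RUNX2 peak was covered, 4 of the 7 lay entirely inside the CBFB peak, and midpoints were 12 to 666 bp apart, with a median of 124 bp. In the other direction 7 of 18 CBFB peaks overlapped RUNX2, a share of 38.9% (17.3 to 64.3), against 33.8% of the CBFB list. Shared CBFB peaks had a median percentile of 76.8 and the other 11 a median of 28.0. In the whole list these medians were 80.0 and 35.9, so the order at the 10 genes was that of the list.

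The ranks of paired peaks fell into different patterns. At *ETS2*, *FLI1* and *ELK3* a RUNX2 peak below the 15th percentile sat on a CBFB peak above the 65th. At *ETV6* and *ELF1* the RUNX2 percentiles ran from 38.5 to 91.1, and those of the CBFB partners, within their own list, from 31.5 to 85.7. Over all 9365 pairs of the list the median percentile of the CBFB partner was 80.5. Low RUNX2 peaks with high CBFB partners were common, since 45.7% of the 1256 overlapping RUNX2 peaks below the 15th percentile had a CBFB partner above the 65th.

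**Figure D4:**
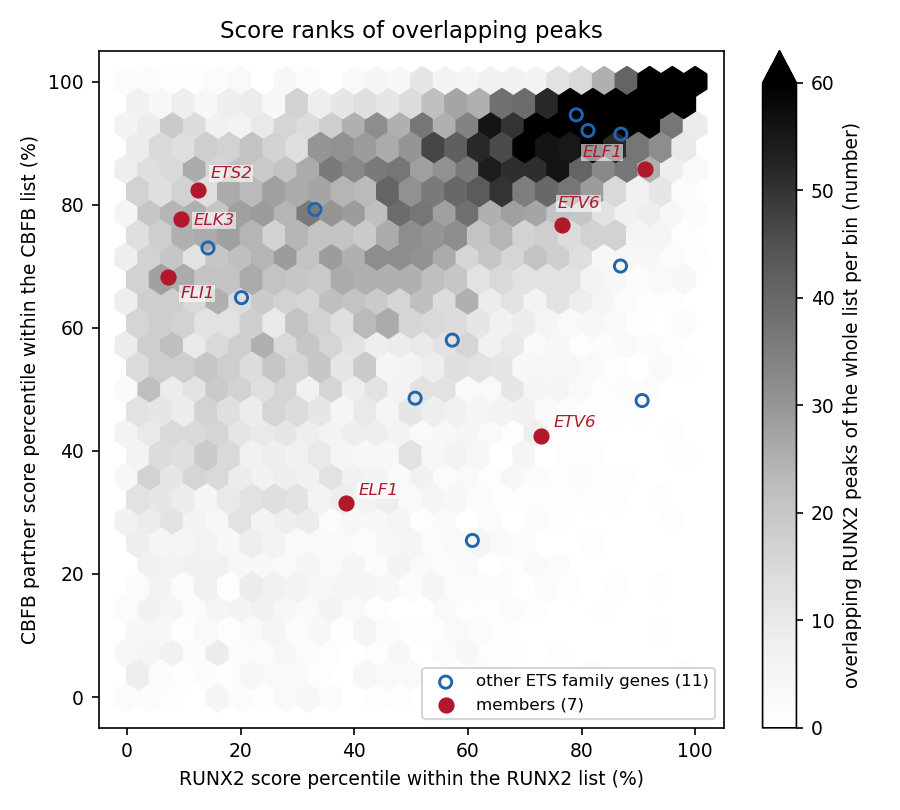
Score percentile of each overlapping RUNX2 peak in the RUNX2 list (horizontal, %) against that of its CBFB partner in the CBFB list (vertical, %). Red points are the 7 pairs at the 10 genes, open blue circles the 11 pairs at other ETS family genes, and grey shading the number of the 9365 pairs of the whole list per bin, darkest at 60 or more. ETS2, FLI1 and ELK3 stand at the upper left, and the pairs of ETV6 and ELF1 farther right.

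By place, 4 of the 7 RUNX2 peaks had their midpoint in an intron, 1 in an untranslated exon, 1 upstream and 1 downstream. Of the 18 CBFB peaks, 13 were intronic, 3 upstream and 2 downstream, and 0 peaks of either list were centred on a coding exon. RUNX2 peaks covered or came within 1 kb of a start at 2 of the 10 genes (*ELF1* and *ELK3*), against 12.6% of coding genes. CBFB peaks did so at 4 of the 10 (*ETV1*, *ETV6*, *ELF1* and *ELK3*), against 31.1%. Within 5 kb of any annotated start lay 3 of 7 RUNX2 midpoints (42.9%, 9.899 to 81.6) and 10 of 18 CBFB midpoints (55.6%, 30.8 to 78.5), against 45.9% and 46.2% of the lists. The CBFB share depended on the starts used: with starts of protein-coding genes only it was 33.3%, against 34.2% of the list, and within 1 kb of any start it was 33.3%, against 26.2%.

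The RUNX core lay within 100 bp of the midpoint of 2 of 7 RUNX2 peaks (28.6%, 3.67 to 71.0), against 43.2% of the list, and of 7 of 18 CBFB peaks (38.9%, 17.3 to 64.3), against 41.6%. It was somewhere in 4 of 7 and 15 of 18 peaks, against 78.1% and 80.9% of the lists. Among CBFB peaks it lay within 100 bp at 5 of the 11 without a RUNX2 peak and at 2 of the 7 with one. The RUNX2 peaks at or around the starts of *ELF1* and *ELK3* all lacked a core near the midpoint. All 4 shares had the value of the whole list inside their exact interval.

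The ETS core, which the members' own products bind, was within 100 bp of 0 of 7 RUNX2 and 0 of 18 CBFB midpoints, a count that allows up to 40.96% and 18.5%, and in the lists it was as rare as 3.03% and 2.43%. It was somewhere in 1 RUNX2 peak, that of *FLI1*, and in 2 CBFB peaks, those of *FLI1* and *ELK3* named above, against 9.16% and 10.4% of the lists. The AP-1 motif lay within 100 bp of 0 RUNX2 and 2 CBFB midpoints, at *ETS2* and *ELK3*, against 13.1% and 11.9% of the lists. It was somewhere in 3 of 7 RUNX2 and 6 of 18 CBFB peaks, against 37.9% and 42.1%. A match is only a description of the letters and does not show which protein was there.

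The 18 other genes of the family, taken as a comparison list, had RUNX2 peaks at 9 (50%) and CBFB peaks at 16 (88.9%), against the 36.0% and 62.2% of all coding genes. They are short, with a median body of 19.5 kb, and had 0.790 RUNX2 peaks (0.394 to 1.41) and 2.37 CBFB peaks (1.63 to 3.33) per 100 kb. Over all coding genes the densities were 0.434 and 1.21. They varied with length, from 0.611 and 1.60 for coding genes under 20 kb to 0.374 and 1.06 for those of 100 kb or more, so the densities of the 18 and of the 10 genes are not directly comparable. The interval of the 18 genes for CBFB began just above the value for coding genes under 20 kb. That of the 10 genes held the value for coding genes of 100 kb or more. The bodies of the 18 genes ran from 3.13 kb (*ETV2*) to 149 kb (*ELF2*), so not all of them belong to the band under 20 kb. All 11 of their RUNX2 peaks overlapped CBFB, and 8 of 11 lay above the median score of the list, against 3 of 7 here. *SPI1*, the myeloid and B cell factor PU.1, was the one other ETS gene with a RUNX2 peak in the top 10% (percentile 90.7). That peak lay in a coding exon, 23068 bp from the start of *SPI1* and 2777 bp from the start of *MYBPC3*. *SPDEF* and *SPIC* had no peak of either list.

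Peaks were also counted by branch of the family, with 2 or 3 genes each. Such counts are too small to compare branches, and gene length, which goes with the number of peaks, was not taken into account. All 3 ternary complex factor genes (*ELK1*, *ELK3* and *ELK4*) had peaks of both lists, as did all 3 epithelium-specific genes (*ELF3*, *ELF5* and *EHF*). Of all coding genes, 35.1% had peaks of both lists. The RUNX2 peak counted for *ELF3* lay 17.2 kb downstream of the gene, and that of *ELF5* had percentile 14.2. The RUNX2 peak counted for *ELK1* lay 7868 bp upstream of the gene and covered the start of a neighbour, *UXT*. At *ELK4* a RUNX2 peak covered its own start and another covered the start of the neighbour *MFSD4A*. The PEA3 genes (*ETV1*, *ETV4* and *ETV5*) had 0 of 3 with RUNX2 and 1 of 3 with CBFB. In the branch of *ERG*, *FLI1* and *FEV*, 2 of 3 had RUNX2 and 3 of 3 had CBFB. For *ELF1*, *ELF2* and *ELF4* it was 2 and 3 of 3, and for *ERF*, *ETV3* and *ETV3L* 1 and 3 of 3. For *SPI1*, *SPIB* and *SPIC* it was 1 and 2 of 3. For *ETS1* and *ETS2* it was 1 and 1 of 2, and for *ETV6* and *ETV7* 1 and 2 of 2. Of *ETV2*, *GABPA* and *SPDEF*, each counted as single, 0 had RUNX2 and 2 had CBFB. Over the whole family, 14 of 28 genes had a RUNX2 peak and 23 had a CBFB peak, beside 36.0% and 62.2% of all coding genes, and a CBFB peak overlapped every one of the 18 RUNX2 peaks.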

How the data were processed

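ChIP-seq peak lists of RUNX2 and CBFB in SAOS2 cells were used, 1 library each, grouped by the sample descriptions. The authors called peaks with MACS, and the submitters' processing notes name MACS 1.4.1, CASAVA 1.8.2 and hg19. The aligner, the calling limit and the use of the input are not given in the sources used here. The deposited lists give a position and a score per peak. The score was read as a log10-scaled p-value from the peak names and its range. The lists hold no read counts, so depth is unknown.

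Gene bodies, starts and exons came from GENCODE release 44 mapped to GRCh37. Peaks on other contigs (13 RUNX2 and 42 CBFB) were left out of annotation and motif steps. Where several CBFB peaks overlapped a RUNX2 peak, its partner was the one that scored highest. All 10 genes were named, with their highest peaks and peaks at starts in full, and other ETS genes where a RUNX2 peak was in the top 10% or no peak was found. By rule, sequences were shown for the highest RUNX2 peak where it held a core, and the others were added after the matches were seen. Members and lists were chosen with earlier results of these data known. Alternatives covered reach, overlap, score limits, list length, gene starts, promoter width and the motif, and a RUNX2 score limit of 60 was added after seeing the data. Steps were tested on simulated data. Python 3.11.15, numpy 2.4.6, pandas 2.3.3, scipy 1.17.1 and matplotlib 3.10.9 were used.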

Additional observations from a re-analysis of the deposited data

How the results depend on the processing

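No paired analysis was possible because there was 1 library per antibody. Of 88 alternatives over 12 results, 16 moved the value beyond the limit set for it (for a share, its exact interval), and 3 of the 88 were added after the data were seen. The wide intervals hid other moves of over 1.5 times. The median RUNX2 percentile was 76.5 with peaks at or above the median score and 25.5 with canonical transcripts as gene bodies. The CBFB promoter share was 33.3% with protein-coding starts and with 1 kb, the share of CBFB peaks that overlapped RUNX2 was 22.2% with the RUNX2 score limit of 60 and 25% with peaks at or above the median score, and the CBFB core share was 22.2% within 50 bp. The RUNX2 core share was 57.1% in the whole peak, 45% within 100 kb and 16.7% within 5 kb of the genes. With only peaks at or above the median score of their list, 3 RUNX2 and 8 CBFB peaks were left near the genes, 2 genes had a RUNX2 peak (*ETV6* and *ELF1*), and the median CBFB percentile was 72.5. A RUNX2 score limit of 60, added after seeing the data, left 4 RUNX2 peaks at 2 genes, again *ETV6* and *ELF1*. With the top 9941 CBFB peaks there were 6 CBFB peaks, with a median percentile of 77.2, and 83.3% of them overlapped RUNX2. This share was not counted over all of the top 9941. In the whole CBFB list, peaks shared with RUNX2 also ranked higher, with a median percentile of 80.0 against 35.9 for the others. Within 100 kb there were 20 RUNX2 and 40 CBFB peaks, 8 genes had a RUNX2 peak (all but *ETS1* and *ETV5*), and all 10 had a CBFB peak. The shares of all coding genes were not counted at 100 kb or under the score limits. These gene counts therefore cannot be set beside the shares given for 25 kb. The core share of RUNX2 peaks was 0% within 50 bp and 0% for TGTGGTT. The core share of CBFB peaks was 16.7% for TGTGGTT and 83.3% in the whole peak. The RUNX2 peaks at *ETS2*, *FLI1* and *ELK3* thus rested on scores near the lowest in the list. A score limit keeps only peaks of higher percentile, so the median percentiles under such limits had to rise. Why the other values moved was not tested. With 1 library per antibody, unknown depth and 7 and 18 peaks, differences from the whole lists are limited by counting error.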
